A study of Homo sapiens with 6 samples.

Results

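DOCK proteins are large guanine nucleotide exchange factors that switch on the small GTPases RAC and CDC42, and through them the actin cytoskeleton that lymphocytes use to migrate and to form synapses. DOCK2 acts on RAC together with the adaptor ELMO1 and is needed for lymphocyte migration. DOCK8 acts on CDC42, and its loss in humans causes a combined immunodeficiency. DOCK9, DOCK10 and DOCK11 form the zizimin group, which also acts on CDC42, and DOCK10 is induced by interleukin 4 in B cells.

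The genes described are DOCK2, DOCK8, DOCK9, DOCK10 and DOCK11, 5 of the 20046 genes that the array's annotation names. Each has 1 probe, so they account for 5 of the 47231 probes in the table. DOCK10 was picked because its difference between pimasertib and DMSO stood among the most positive on these same arrays, and the other 4 genes were added as related exchange factors. The members' differences between treatments and over time are therefore a description. They went through the fits over all probes only so that counts of calls could be set beside those of all probes. The cells were OCI-LY10, an established human line of activated B cell-like lymphoma, with no genetic change stated. They received pimasertib, which blocks MEK1 and MEK2, the kinases upstream of ERK, or the solvent DMSO, for 4, 8 or 12 h. Each combination had 1 array, 6 in all, and the labels name no dose, no separate cultures and no batch. The SE of a difference is limma's moderated SE. It combines how far the difference varied between the 3 times, where technical spread and real change over time are mixed, with a variance shared by all fitted probes. For a gene whose difference varied widely over time it is therefore smaller than that variation alone would give, and for a steady gene larger.

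On these arrays 3 of the 5 genes, DOCK10, DOCK2 and DOCK11, had a higher signal with pimasertib than with DMSO at 4, 8 and 12 h. Their starts of transcription are shown here because they moved in the same direction, with that of DOCK8, which did not, for comparison. Each is the 250 bases before an annotated start in RefSeq (GRCh38.p14), written 5′ to 3′ along the gene's strand, with matches to the ETS core GGAAG on either strand in capitals. ETS factors are DNA-binding proteins, several of which ERK phosphorylates.
DOCK10 at chr2:225042469-225042718, minus strand: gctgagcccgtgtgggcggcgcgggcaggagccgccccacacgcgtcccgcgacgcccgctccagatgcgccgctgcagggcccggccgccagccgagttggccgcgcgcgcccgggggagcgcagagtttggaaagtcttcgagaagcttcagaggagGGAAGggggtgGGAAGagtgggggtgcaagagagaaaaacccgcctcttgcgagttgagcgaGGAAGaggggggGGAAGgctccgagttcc
DOCK2 at chr5:169637025-169637274, plus strand: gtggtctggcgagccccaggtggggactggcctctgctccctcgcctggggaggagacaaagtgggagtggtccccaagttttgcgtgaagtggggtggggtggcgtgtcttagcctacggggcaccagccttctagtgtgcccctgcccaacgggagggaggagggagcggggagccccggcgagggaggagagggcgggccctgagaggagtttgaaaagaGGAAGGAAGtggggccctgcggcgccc
DOCK11 at chrX:118495565-118495814, plus strand: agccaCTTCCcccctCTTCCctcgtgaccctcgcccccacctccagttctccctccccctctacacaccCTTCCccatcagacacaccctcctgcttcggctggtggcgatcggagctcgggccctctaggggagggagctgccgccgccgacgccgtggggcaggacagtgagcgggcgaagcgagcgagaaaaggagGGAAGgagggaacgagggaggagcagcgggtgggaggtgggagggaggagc
DOCK8 at chr9:214615-214864, plus strand: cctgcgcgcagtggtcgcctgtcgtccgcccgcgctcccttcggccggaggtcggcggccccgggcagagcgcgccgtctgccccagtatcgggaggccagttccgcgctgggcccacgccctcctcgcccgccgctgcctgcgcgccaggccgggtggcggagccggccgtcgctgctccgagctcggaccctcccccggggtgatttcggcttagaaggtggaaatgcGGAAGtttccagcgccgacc
The core occurred 4 times in the DOCK10 stretch, at 91, 80, 29 and 17 bases before the start. It occurred 4 times in that of DOCK11, 2 times in that of DOCK2, where the matches at 27 and 23 bases before the start share 1 base, and 1 time in the printed stretch of DOCK8. The second start of DOCK8 has 3 cores, more than DOCK2. Of all 35116 annotated stretches of this length, 65.1% hold the core at least once, so its presence does not set these genes apart. RefSeq lists 9 such starts for the 5 genes, among them 2 further starts of DOCK10 with 1 core each, and every one of the 9 holds at least 1 core. The counts for DOCK10 and DOCK8 thus depend on which start is printed. The share of all stretches with more than 1 core was not computed. The longer PU.1 form GAGGAAGT, which contains the core, was found in 2.17% of all stretches and among these genes only at the second start of DOCK8, with 2 matches. The EGR motif GCGNGGGCG, found in 8.41% of all stretches, had 1 match at the printed start of DOCK8 and 1 at a start of DOCK9. The AP-1 motif TGANTCA, the STAT palindrome, the FOXO motif GTAAACA and the E-box CACGTG had no match in the 9 stretches, against 6.57%, 5.38%, 2.98% and 6.34% of all. These matches describe letters only, and binding was not measured.

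Values are the authors' log2 intensities, which range from 6.20 to 13.91, and a probe was taken as measured where it exceeded 6.70 in at least 3 of the 6 arrays. This threshold lies 3 background SDs above the most frequent value, 6.49. Of the 5 DOCK probes 4 passed in all 6 arrays. Just inside, the lowest value of a passing member was 7.97, for DOCK8 in the pimasertib array of 12 h. Just outside, the highest value of DOCK9 was 6.61, in the DMSO array of 12 h. Among all probes 19894 passed, and these were fitted together. Levels of different probes are not compared, since probes differ in how well they bind. The label was checked on B cell markers, of which 5 of 6 with a probe were above the threshold in all 6 arrays, PAX5 being the exception. For T cells, myeloid cells, fibroblasts and epithelial cells 1 of 6, 1 of 4, 1 of 4 and 2 of 4 markers passed. These were CD2, CD14, DCN, and EPCAM with KRT8, and CD3D, CD3E, LYZ, COL1A1 and CDH1 did not pass. In all 6 arrays the counts above the threshold were 1, 1, 0 and 1. CD2, KRT8 and CD14 averaged 7.54, 7.40 and 7.06 over the 6 arrays, and the B cell marker CD22 averaged 6.82. The mean level of the B cell list was 8.84 to 8.89 in the pimasertib arrays, against 8.89 to 8.97 in the DMSO arrays, and that of the T cell list was 6.69 to 6.77, against 6.65 to 6.78. EGR1, a transcription factor gene induced through ERK, was read as a check of the drug and was at 6.87, 6.74 and 6.62 in the pimasertib arrays of 4, 8 and 12 h, against 8.32, 8.77 and 8.85 in the DMSO arrays of those times. The array of DMSO at 8 h was the least like the rest. Its correlation with each other array, over all measured probes, averaged 0.925, where the averages of the other 5 arrays were 0.951 to 0.973. The members' mean differences and the likeness to DOCK10 are therefore also given without that array or without the 8 h pair, while slopes and the values of listed genes are given with it.

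DOCK10 encodes the zizimin exchange factor that interleukin 4 induces in B cells. Its probe read 10.07, 10.16 and 10.23 in the pimasertib arrays of 4, 8 and 12 h, against 9.51, 7.99 and 8.94 in the DMSO arrays of those times. All 3 pimasertib values lay above all 3 DMSO values, with the lowest value in the DMSO array of 8 h. The pimasertib arrays averaged 10.15 ± 0.08 and the DMSO arrays 8.82 ± 0.77 (SD, n = 3 each). The difference, pimasertib minus DMSO, was 0.55 at 4 h, 2.16 at 8 h and 1.29 at 12 h, which is 1.47-fold, 4.48-fold and 2.45-fold. Its mean over the 3 times was 1.34 ± 0.30 (SE), or 2.52-fold. Without the 8 h pair the mean was 0.92 ± 0.22 (SE). In bulk RNA of this cell line, a change in every cell and a change in only some of the cells cannot be told apart. A higher difference than that of DOCK10 was shown by 1.1% of all measured probes at 4 h, 0.412% at 8 h and 1.27% at 12 h.

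DOCK2, the RAC activator of lymphocyte migration, showed the same order of groups with a smaller distance. It read 10.29, 10.30 and 10.57 in the pimasertib arrays of 4, 8 and 12 h, against 9.83, 9.27 and 10.05 in the DMSO arrays. The groups did not overlap, and the DMSO array of 8 h was again the lowest. The pimasertib arrays averaged 10.39 ± 0.16 and the DMSO arrays 9.72 ± 0.41 (SD, n = 3 each). The differences were 0.46, 1.04 and 0.52 at 4, 8 and 12 h, with a mean of 0.67 ± 0.18 (SE), or 1.59-fold. Without the 8 h pair the mean was 0.49 ± 0.17 (SE). Of all measured probes, 2.09%, 5.08% and 10.1% had a higher difference than DOCK2 at 4, 8 and 12 h.

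DOCK11, a zizimin factor first described in mouse germinal centre B cells, was nearly level in the pimasertib arrays. Its probe read 8.75, 8.73 and 8.72 there at 4, 8 and 12 h, against 8.39, 8.09 and 8.54 in the DMSO arrays. The groups did not overlap, although at 12 h they were only 0.17 apart. The pimasertib arrays averaged 8.73 ± 0.02 and the DMSO arrays 8.34 ± 0.23 (SD, n = 3 each). The differences were 0.37, 0.64 and 0.17 at 4, 8 and 12 h, with a mean of 0.39 ± 0.17 (SE), or 1.31-fold, and 0.27 ± 0.18 (SE) without the 8 h pair. At 12 h, 31.3% of all measured probes had a higher difference, against 4.18% at 4 h and 12.3% at 8 h.

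DOCK8, the CDC42 activator whose loss causes immunodeficiency, had no common direction. It read 8.29, 8.38 and 7.97 in the pimasertib arrays of 4, 8 and 12 h, against 8.50, 8.28 and 8.33 in the DMSO arrays. The groups overlapped, with the lowest value in the pimasertib array of 12 h. The pimasertib arrays averaged 8.21 ± 0.22 and the DMSO arrays 8.37 ± 0.11 (SD, n = 3 each). The differences were -0.21, 0.10 and -0.36 at 4, 8 and 12 h, and the mean of -0.16 ± 0.17 (SE) was smaller than its error. Without the 8 h pair it was -0.29 ± 0.18 (SE).

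DOCK9, another zizimin factor, was not above the background threshold in any array. Its probe read 6.41, 6.47 and 6.55 in the pimasertib arrays of 4, 8 and 12 h, against 6.58, 6.46 and 6.61 in the DMSO arrays. With both treatments below the threshold no fold is given. This says only that these values were not distinguishable from background, not that the RNA was absent.

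**Figure D1:**
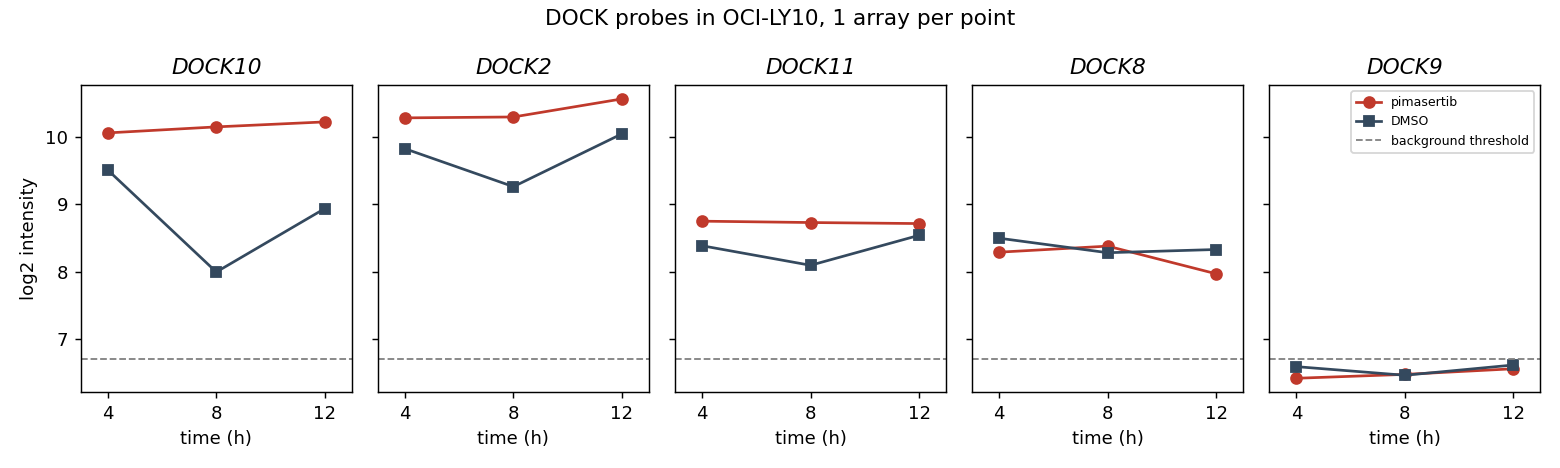
Log2 intensity of the 5 DOCK probes against time in hours, 1 panel per gene and 1 array per point, with pimasertib as circles, DMSO as squares and the background threshold of 6.70 as a dashed line. DOCK10, DOCK2 and DOCK11 lie higher with pimasertib at each time and dip in the DMSO array of 8 h, DOCK8 overlaps between treatments, and DOCK9 stays below the threshold.

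Set beside all measured probes, 3 of the 4 measured members had all 3 pimasertib arrays above all 3 DMSO arrays, an arrangement shown by 8.11% of the 19894 probes. The opposite arrangement was shown by 0 members and 7.5% of probes. Compared time by time, the same 3 members were higher with pimasertib at each of the 3 times, as were 17.4% of probes, and 0 members were lower at each, as were 14.7%. Because DOCK10 was chosen by this contrast, nothing is read from these counts. In limma with the time point as a block, 0 of the 4 measured members passed an adjusted p of 0.05 (Benjamini-Hochberg over all measured probes), where 0% of all probes passed and 6.86% had an unadjusted p under 0.05. EGR1, the check of the drug, did not pass either, with a difference of -1.90 ± 0.20 (SE) and an adjusted p of 0.691 in limma. A missing call in this fit thus does not show that a gene was unchanged. At 4 h 0 members were at least 1.5-fold higher with pimasertib, against 0.945% of probes. At 8 h DOCK10, DOCK2 and DOCK11 were, against 13.6% of probes, and at 12 h only DOCK10 was, against 8.36%. By a mark of 2-fold, DOCK10 and DOCK2 were higher at 8 h, against 5.55% of probes, and DOCK10 at 12 h, against 2.44%, with 0 members and 0.111% of probes at 4 h. No measured member was at least 1.5-fold lower at any time, where 0.92%, 9.84% and 7.76% of probes were at 4, 8 and 12 h. The middle difference over all measured probes was 0.01, 0.04 and -0.01 at these times.

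**Figure D2:**
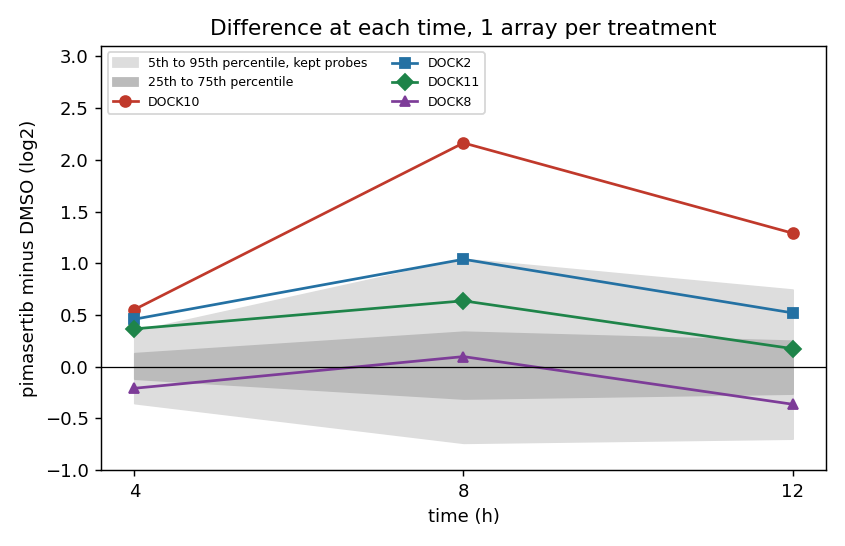
Pimasertib minus DMSO on the log2 scale against time in hours for the 4 measured DOCK probes, each point from 1 array per treatment, over shaded bands that hold the middle 90% and 50% of all measured probes. DOCK10 lies above the wide band at each time, DOCK2 and DOCK11 lie above it at 4 h only, and the band itself is wider at 8 and 12 h than at 4 h.

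The change with time was read inside each treatment. In the pimasertib arrays DOCK10 differed by 0.09 between 8 and 4 h and by 0.16 between 12 and 4 h. In the DMSO arrays the change was -1.52 between 8 and 4 h, or 2.87-fold lower at 8 h, and -0.57 between 12 and 4 h, or 1.49-fold lower at 12 h. The later pimasertib arrays were thus slightly higher than that of 4 h and the later DMSO arrays lower by more, while a difference of 0.55 between treatments was already present at 4 h. Its range over the 3 DMSO arrays was 1.52, and 3.79% of all measured probes had a wider one. Its range over the 3 pimasertib arrays was 0.16, below the median of 0.23 over all measured probes.

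DOCK2 changed by 0.01 between 8 and 4 h and by 0.28 between 12 and 4 h in the pimasertib arrays. In the DMSO arrays it changed by -0.57 between 8 and 4 h and by 0.22 between 12 and 4 h, so its low value was confined to the 8 h array among the 3 DMSO arrays. DOCK11 moved over a range of 0.04 in the pimasertib arrays, where 98.1% of measured probes had a wider range, and over 0.45 in the DMSO arrays. Its DMSO values changed by -0.29 between 8 and 4 h and by 0.16 between 12 and 4 h. DOCK8 was the only measured member with a wider range in the pimasertib arrays, 0.41, than in the DMSO arrays, 0.22. Its widest step was -0.41 between 12 and 8 h with pimasertib.

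Read by the 1.5-fold mark, DOCK10 alone among the measured members was lower in the DMSO array of 8 h than in that of 4 h, where 13.7% of all measured probes were. DOCK2 fell just short of the mark at 1.48-fold lower, and DOCK11 and DOCK8 changed by -0.29 and -0.22 over the same interval. Between 12 and 8 h DOCK10 and DOCK2 were higher in DMSO by that mark, at 1.93-fold and 1.73-fold, as were 15.7% of probes, while 0 members and 13.3% of probes were lower. Between 12 and 4 h 0 members reached it in DMSO, where 4.53% of probes were higher and 6.46% lower. Inside pimasertib 0 members reached it over any interval. Of all probes 0.0804% were higher and 0.0402% lower at 8 h than at 4 h, 2.31% higher and 3.44% lower at 12 h than at 4 h, and 1.76% higher and 3.17% lower at 12 h than at 8 h. Slopes per hour from limma gave 0 calls among the members, with 0% of probes called in either treatment or for the difference of slopes. For DOCK10 the slope was 0.02 ± 0.09 log2 units per hour with pimasertib and -0.07 ± 0.09 with DMSO (SE), so neither exceeded its error. The difference of slopes, pimasertib minus DMSO, was 0.09 ± 0.12 for DOCK10, 0.01 ± 0.08 for DOCK2, -0.02 ± 0.05 for DOCK11 and -0.02 ± 0.05 for DOCK8 (SE), each smaller than its error. The slopes were not fitted without the DMSO array of 8 h, and the change between 12 and 4 h is the part of the DMSO course that leaves it out.

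By Pearson correlation over the 6 arrays, the 5 genes whose probes were most like DOCK10 were MARCHF7, MKRN1, HENMT1, CNTNAP4 and IP6K2, chosen among 4248 genes with an SD of at least 0.3. Their r was between 0.990 and 0.996, and 318 genes had an r over 0.9, so a high likeness was common with so few arrays. MARCHF7, a ubiquitin ligase gene, was the closest (r = 0.996) and was among 62 genes tied at a Spearman rho of 1. It read 9.95, 10.07 and 10.18 in the pimasertib arrays of 4, 8 and 12 h, against 9.47, 8.43 and 9.18 in the DMSO arrays. Like DOCK10 it was lowest in the DMSO array of 8 h and varied little between the pimasertib arrays. The 5 genes were picked for a high r over these same arrays, so a shared shape follows from the choice. MKRN1, also a ubiquitin ligase gene, had differences of 0.37, 1.51 and 0.76 at 4, 8 and 12 h (r = 0.991, rho = 0.771). HENMT1, which encodes a small RNA methyltransferase, had 0.25, 1.57 and 0.69 (r = 0.990, rho = 0.943). All 5 had their lowest value in the DMSO array of 8 h, and without that array their r with DOCK10 was 0.969 to 0.987. None of the 5 was then among the 5 closest, whose r was at least 0.993.

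**Figure D3:**
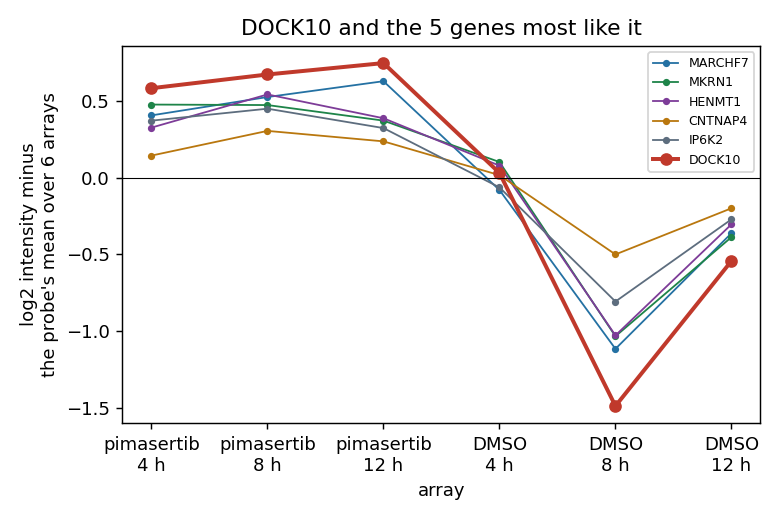
Log2 intensity minus the probe's own mean over the 6 arrays, for DOCK10 (thick line) and the 5 genes with the highest Pearson r to it, with the pimasertib arrays at the left and the DMSO arrays at the right. All 6 lines have their lowest point in the DMSO array of 8 h and lie above their means in the pimasertib arrays. The 5 genes were picked by that r, so the shared shape follows from the choice.

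The other DOCK genes gave little signal. Of those read, DOCK1, DOCK4 and DOCK5 were below the threshold in all 6 arrays. DOCK3, a RAC activator known from neurons, was close to the threshold, between 6.65 and 7.05 in the pimasertib arrays, against 6.78 to 7.48 in the DMSO arrays. DOCK6, a relative of DOCK8, was at 7.06, 7.02 and 6.70 with pimasertib, against 7.10, 6.78 and 7.47 with DMSO. Both had overlapping groups and differences of both signs over the 3 times.

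Genes that work with the DOCK factors were read from lists, 1 probe per gene, and none of those measured had an adjusted p under 0.05 (limma), as for 0% of all 11100 genes. Over all these genes 17.4% were higher and 15.7% lower with pimasertib at all 3 times, and the median difference was 0.02. Among 11 measured DOCK partners and regulators 1 was higher and 2 lower at all 3 times, with a median of -0.10. The 2 lower ones, WIPF1 and WAS, encode the WIP and WASP proteins that link DOCK8 and CDC42 to actin. WAS read 10.37, 10.34 and 10.11 in the pimasertib arrays of 4, 8 and 12 h, against 10.65, 10.88 and 10.44 in the DMSO arrays, a difference of -0.38 ± 0.15 (SE). The groups of WAS did not overlap. For WIPF1 the probe used gave -0.62 ± 0.19 (SE) and another measured probe gave 0.55, so its direction is unsettled. ELMO1, the adaptor of DOCK2, was at -0.18 ± 0.20 (SE), with 3 other measured probes at 0.58, -0.09 and 0.28. STK4, a kinase that acts upstream of DOCK8 in mouse T cells, was at -0.35 ± 0.24 (SE), and LRCH1, which binds DOCK8, was not measured above background in 3 arrays.

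The small GTPases are the switches that exchange factors load with GTP. CDC42, the target of DOCK8 and the zizimin factors, read 9.73, 9.75 and 9.89 in the pimasertib arrays of 4, 8 and 12 h, against 9.62, 10.85 and 10.28 in the DMSO arrays. It was highest in the DMSO array of 8 h, where DOCK10 was lowest. Its difference was -0.46 ± 0.25 (SE), and 2 other measured probes gave -0.10 and -0.27. RAC2, the blood cell RAC on which DOCK2 acts, read 11.68, 11.60 and 11.69 in the pimasertib arrays, against 11.67, 8.46 and 12.10 in the DMSO arrays. RHOA read 11.18, 11.14 and 11.18 in the pimasertib arrays, against 11.22, 7.88 and 11.32 in the DMSO arrays. For both, the 1 array that differs is DMSO at 8 h, so that their mean differences of 0.91 ± 0.65 and 1.03 ± 0.64 (SE) rest on it. RAC1 was at -0.16, RHOG at -0.40 and RHOH at -0.12.

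Of 12 measured exchange factors outside the DOCK family 2 were higher and 2 lower at every time, with a median of -0.05. SWAP70, an actin-binding factor of B cells, read 11.35, 11.15 and 11.48 in the pimasertib arrays of 4, 8 and 12 h, against 11.05, 10.28 and 10.67 in the DMSO arrays. Its groups did not overlap, its lowest value was again in the DMSO array of 8 h, and the difference was 0.66 ± 0.18 (SE). VAV1, which acts downstream of the B cell receptor, was at -0.46 ± 0.16 (SE), PREX1 at -0.21 and DEF6 at -0.08. Of 14 measured GTPase-activating proteins and dissociation inhibitors 2 were higher and 4 lower, with a median of -0.03. ARHGDIB, a GDP dissociation inhibitor of blood cells, was at 12.43, 12.46 and 12.75 with pimasertib, against 12.48, 10.56 and 12.70 with DMSO, so its difference also lay at 8 h. ARHGAP15 was at 0.31 and ARHGAP25 at -0.03. Of 16 measured actin effectors 2 were higher and 5 lower, with a median of 0.02, and CORO1A was at 0.18.

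Because interleukin 4 induces DOCK10 in B cells, its receptor pathway was read as well. Of 6 measured genes 1 was higher and 1 lower at all 3 times, with a median of 0.02. The higher gene averaged 6.70 over the 6 arrays, at the background threshold, and another of the 6 genes averaged 6.68. IL4R, a chain of the receptor, was at -0.19 ± 0.15 (SE), and STAT6, the transcription factor it activates, at -0.15 ± 0.16 (SE). FCER2, which encodes CD23 and is a known interleukin 4 response gene, was not measured above background in 3 arrays.

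**Figure D4:**
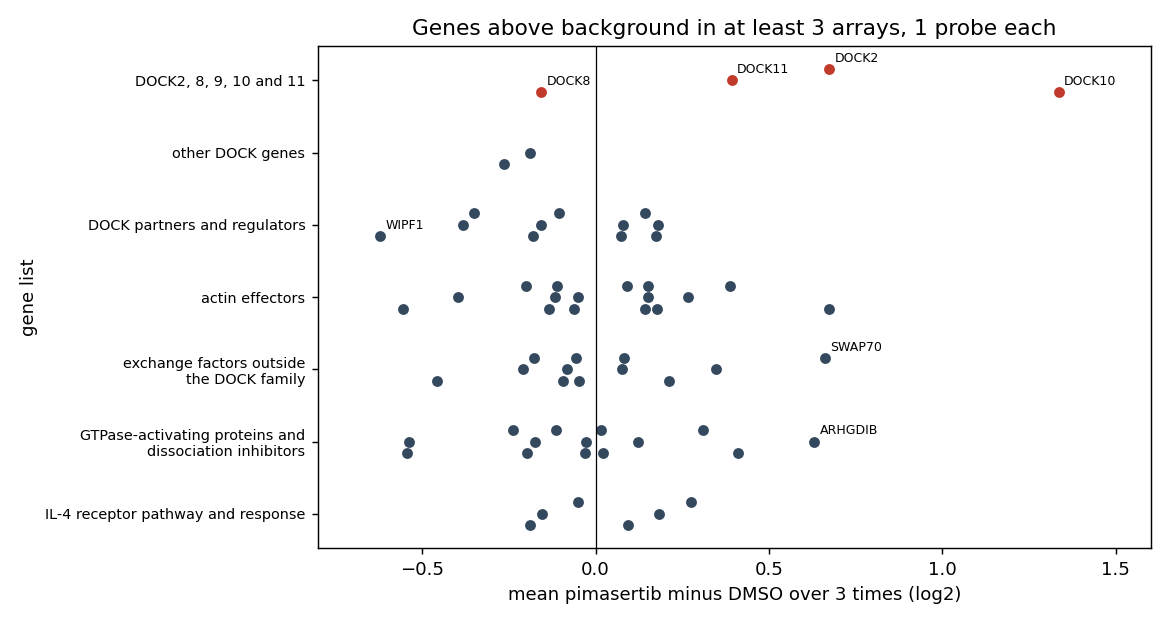
Mean pimasertib minus DMSO over the 3 times on the log2 scale for every measured gene of the lists shown, 1 point per gene, with DOCK2, DOCK8, DOCK10 and DOCK11 in red at the top. Among the genes shown, which do not include RHOA and RAC2 at 1.03 and 0.91, DOCK10 at 1.34 lies farthest right, followed by DOCK2 and ABI1, both at 0.67, SWAP70 at 0.66 and ARHGDIB at 0.63.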

How the data were processed

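Total RNA of OCI-LY10 cells was amplified to biotinylated cRNA and hybridised to Illumina bead arrays, per the labels' protocols. The values deposited by the authors are log2 intensities of 47231 probes, with base 2 inferred from their range. Sorted, the 6 columns are within 9e-04 of each other, which is the result of quantile normalization. No source used here names the software or background correction. A second table, of 6 columns whose names match no label, was not used. Groups and times came from the labels. Probes were named from the platform annotation, with 1 gene on 30113 probes, several genes on 8 and no gene on 17110, and 30074 of the named probes were found in RefSeq (GRCh38.p14) by gene identifier.

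Without detection p-values at hand, the background was taken as the most frequent value, 6.49, with an SD of 0.0700 from the values below it. The 19894 probes above 6.70 in at least 3 arrays were fitted with limma 3.58.1 (R 4.3.3), with treatment and the time point as a 3-level factor, which leaves 2 residual degrees of freedom. Slopes came from a fit with hours, treatment and their interaction. P-values were two-sided, with Benjamini-Hochberg adjustment over all fitted probes. The labels do not say that the arrays came from separate cultures, so the spread behind the errors may be technical. The errors are moderated, drawn toward a variance shared by all fitted probes, and change with the filter and the prior. The number of arrays limits the precision. Lists used the measured probe of highest mean per gene. Genes named are all members, the other DOCK genes, EGR1, list genes set down by name whatever their values, and the 5 genes with the highest Pearson r to DOCK10. The members and lists were chosen with earlier results of these data known. The fits were run on simulated data with independent noise, planted treatment differences larger than any member's mean, and no deviating array. That run checked the code, and it does not show how well the fits suit these arrays. Alternatives were no filter, a filter on all 6 arrays, a threshold of 6.91, 1 probe per gene, a trended and robust prior, cyclic loess, no time block, linear hours and each time pair left out. A fit without the DMSO array of 8 h and the change between 4 and 12 h were added after seeing the data. Some items of the lists are not reported here.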

Additional observations from a re-analysis of the deposited data

How the results depend on the processing

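Of the 12 alternatives run for each member, those of filter, probe choice, prior and time term cannot move the difference, only its error. Cyclic loess, each time pair left out and the fit without the DMSO array of 8 h could move it. Under these the differences of DOCK10, DOCK2, DOCK11 and DOCK8 kept their sign. For DOCK10, DOCK2 and DOCK11, higher at each time, leaving out a pair could not change the sign. None of the 4 passed an adjusted p of 0.05 in limma in any of the 12. DOCK10 ranged from 0.92 to 1.73, DOCK2 from 0.45 to 0.78, DOCK11 from 0.27 to 0.50 and DOCK8 from -0.29 to -0.05. With the time pairs left out one at a time, DOCK10 ran from 0.92 without the 8 h pair to 1.73 without the 4 h pair. Without the DMSO array of 8 h and with linear hours, DOCK10 was at 0.92 ± 0.17 (SE), DOCK2 at 0.45, DOCK11 at 0.27 and DOCK8 at -0.20. Without the time point as a replicate block DOCK10 was at 1.34 ± 0.35 (SE). Only the error could differ there, since each time has 1 array of each treatment. That fit called 0 of all probes, as did the fit with the block.

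Over all probes the count of calls was 0 in the fit described, with 1365 at an unadjusted p under 0.05. It was 2 with a trended and robust prior. With the pairs left out it ran from 0 to 10, with 10 without the 12 h pair, and 0 of these calls were members. The cause was not tested. At a mark of 2-fold in place of 1.5-fold, 2 in place of 3 members were past it at 8 h. Of the 5 genes most like DOCK10, 0 stayed among the 5 closest without the DMSO array of 8 h. By Spearman rho 62 genes tied at 1, so no 5 closest can be named, and 1 of the 5, MARCHF7, was among those tied. DOCK9, when fitted without a filter, was at -0.07 ± 0.07 (SE), a difference between values at background. With 1 array per treatment and time, a difference at a single time cannot be set against replicate spread.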

Other observations

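A probe annotated to DOCK8-AS1, an RNA gene beside DOCK8, was near the background threshold. It read 6.99, 6.91 and 6.68 in the pimasertib arrays of 4, 8 and 12 h, against 7.15, 6.64 and 7.02 in the DMSO arrays, and exceeded 6.70 in 4 of the 6 arrays. The sign of its difference at each time was that of DOCK8, at -0.16, 0.27 and -0.33, and its groups overlapped. A probe annotated to DOCK9-DT, a transcript that diverges from DOCK9, was below the threshold in all 6 arrays, as was DOCK9 itself.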
